A study of Rattus norvegicus with 6 samples.

Results

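The Schwann cell and myelin genes described here are *Pmp22*, *Mbp*, *Mag*, *Prx*, *Sox10*, *Ngfr*, *S100b* and *Egfl8*. They were taken by symbol, and all 8 had at least 1 row among the 26419 transcripts of the array, 12 rows in all, because *Mbp* had 5 rows and each other gene had 1. A gene symbol could be given to 9747 rows, or 9627 distinct symbols. The samples were skeletal muscle, soleus and gastrocnemius in 1 sample, of 1-day-old male Wistar rats, with 3 pups of lower birth weight (LBW) and 3 control pups of average birth weight (ABW) and a single-colour NimbleGen array for each pup. LBW pups were of the 5 to 25 percentile range by weight at birth, whereas the control pups are labelled 25 to 75 in one field and 50 to 75 in the protocol. No treatment is named for the pups or their parents, so that the groups are weight classes, and the sources used here do not tie an array to a litter. The comparison addresses whether the nerve share of the muscle, or the maturity of its Schwann cells, differed with birth weight.

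Schwann cells are the glia of peripheral nerve and enter muscle with the motor and sensory axons. An immature Schwann cell makes the neurotrophin receptor p75 (*Ngfr*) and few myelin proteins. Around birth, cells that take up a 1-to-1 relation with a large axon switch on the myelin genes under Sox10 and Egr2 and lose p75, while cells around small axons stay unmyelinated and keep it. In a muscle homogenate, fewer cells of a type and less RNA per cell cannot be told apart.

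None of the 8 genes passed the threshold of the study, an unadjusted p under 0.05 with a fold change of at least 1.5, in limma, which fits a linear model to each transcript and steadies its error with the errors of all others. Over all 26419 transcripts 4.28% passed it by limma. Without the fold change criterion 12.4%, or 3270 transcripts, had an unadjusted p under 0.05, and 0%, or 0 transcripts, had an adjusted p under 0.05. Of the 8 genes 1 had an unadjusted p under 0.05 by limma, which was *S100b* at a fold change of 0.707, and 0 passed the threshold by an unpaired 2-sample test without moderation, which the study names for its other assays and which is called the unmoderated test here. The log2 fold change of LBW over ABW was positive for 4 genes and negative for 4, with a median of -0.02, compared to -0.02 over all transcripts. For 2 of the 8 genes, *Pmp22* and *S100b*, the ranges of the groups were apart, as they were for 17.4% of all transcripts. A single one of the 5 *Mbp* rows was past the threshold and is described on its own.

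**Figure D1:**
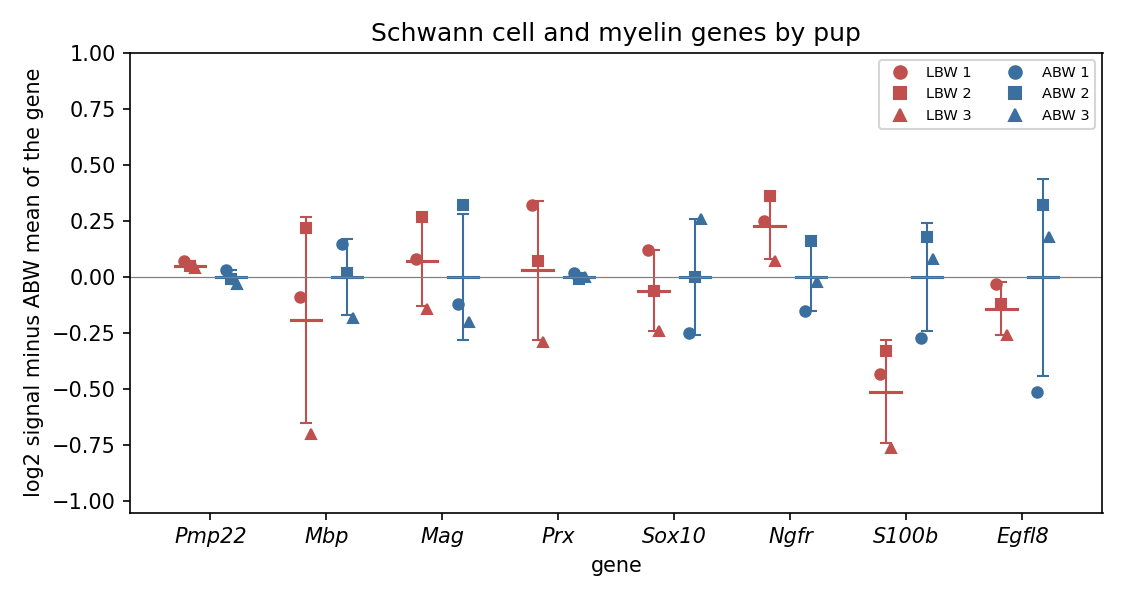
Log2 signal of each of the 8 genes (x axis) in each pup, minus the ABW mean of that gene (y axis); red marks are LBW pups and blue marks ABW pups, the marker shape gives the replicate number, and bars give the mean and SD of 3 pups. The groups lie apart for *S100b*, with LBW lower, and by a small step for *Pmp22*, and overlap for the other genes.

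Sox10 and Egr2 act on the promoters and enhancers of myelin genes. Windows of 250 bases before a transcript start were found by symbol in RefSeq (assembly GRCr8) for 6 of the 8 genes, in 7 windows, since *Mbp* has 2 starts in that table. The windows of *Mag*, an established Sox10 target, of *S100b*, the gene with the smallest p, and of both *Mbp* starts, the gene whose rows disagree, are shown. They lie at chr1:95291045-95291294 on the minus strand (*Mag*), at chr20:12381082-12381331 on the minus strand (*S100b*), and at chr18:78130402-78130651 and chr18:78209995-78210244 on the plus strand (*Mbp*), each written from 5′ to 3′ along the gene. Capitals mark every match, on either strand, of the SOX core letters ACAAAG and ACAATG, which share their first bases, and of the EGR letters GNGTGGGNG. The *S100b* window and that of the first *Mbp* start hold none and are in lower case throughout.
Mag: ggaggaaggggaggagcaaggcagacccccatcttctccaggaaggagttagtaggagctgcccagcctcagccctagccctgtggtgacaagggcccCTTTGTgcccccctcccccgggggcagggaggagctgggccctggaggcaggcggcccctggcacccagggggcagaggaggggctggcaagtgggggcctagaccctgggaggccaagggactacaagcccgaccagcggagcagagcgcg
S100b: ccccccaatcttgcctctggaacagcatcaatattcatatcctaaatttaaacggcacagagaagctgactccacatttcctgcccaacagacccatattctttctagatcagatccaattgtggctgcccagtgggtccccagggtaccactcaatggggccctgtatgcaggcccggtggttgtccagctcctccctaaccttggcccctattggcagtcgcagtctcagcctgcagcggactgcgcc
Mbp, start 1: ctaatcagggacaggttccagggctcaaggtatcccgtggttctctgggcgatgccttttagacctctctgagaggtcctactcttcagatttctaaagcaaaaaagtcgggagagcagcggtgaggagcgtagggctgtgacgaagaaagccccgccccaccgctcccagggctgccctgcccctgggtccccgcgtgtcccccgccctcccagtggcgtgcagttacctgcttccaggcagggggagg
Mbp, start 2: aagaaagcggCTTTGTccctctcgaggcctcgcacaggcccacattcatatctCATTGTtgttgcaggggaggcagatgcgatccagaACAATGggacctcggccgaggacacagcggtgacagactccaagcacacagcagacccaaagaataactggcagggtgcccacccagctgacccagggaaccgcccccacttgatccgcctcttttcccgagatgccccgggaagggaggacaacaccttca
A SOX core match stood in 3 of the 7 windows (*Mag*, *Egfl8* and the second *Mbp* start), whereas 25.3% of all 33469 windows of this length hold one (16.3% ACAAAG and 11.1% ACAATG). An EGR match stood in 1 window, that of *Prx*, and in 11.3% of all windows. The matches are letters only. The 2 *Mbp* starts lie 79593 bases apart, and the files do not say from which start the transcript behind each *Mbp* row is read.

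*Pmp22* and *Mbp* make proteins of compact myelin, with Pmp22 a membrane protein and Mbp the protein that holds the cytoplasmic faces of the membrane together. The log2 signal of *Pmp22* was 14.94, 14.92 and 14.91 in LBW 1, 2 and 3, and 14.90, 14.86 and 14.84 in ABW 1, 2 and 3. All LBW values were above all ABW values, but the step was small, with a log2 fold change of 0.06 (SE 0.08, 95% interval -0.13 to 0.24, adjusted p = 0.802 by limma; exact permutation test, 2-sided p = 0.1, and 3 pups against 3 allow none smaller). *Pmp22* is also made by fibroblasts and other non-neural cells, and its signal lay close to the upper end of the arrays, whose highest values were between 15.18 and 15.49. The mean of the 5 *Mbp* rows was 10.99, 11.30 and 10.38 in LBW 1, 2 and 3 and 11.23, 11.10 and 10.90 in ABW 1, 2 and 3. LBW pups were both the highest and the lowest of the 6, and the log2 fold change was -0.19 (SE 0.24, 95% interval -0.75 to 0.38, adjusted p = 0.796 by limma).

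*Mag*, the myelin-associated glycoprotein, sits on the inner myelin membrane facing the axon. It was at 7.46, 7.65 and 7.24 in the LBW pups and at 7.26, 7.70 and 7.18 in the ABW pups on the log2 scale. The groups overlapped, with a log2 fold change of 0.07 (95% interval -0.35 to 0.48, adjusted p = 0.905 by limma). *Prx* encodes periaxin, a scaffold that links the outer membrane of the myelinating cell to its basal lamina. Its ABW values were within 6.80 to 6.83, whereas the LBW values ran from 6.52 in LBW 3 to 7.13 in LBW 1, above and below them. The log2 fold change of *Prx* was 0.03 (95% interval -0.35 to 0.41, adjusted p = 0.955 by limma).

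*Sox10* is the transcription factor that specifies the Schwann cell lineage and stays on in immature and mature cells. Its log2 signal was 8.77, 8.59 and 8.41 in LBW 1, 2 and 3 and 8.40, 8.65 and 8.91 in ABW 1, 2 and 3, so that the 2 groups covered nearly the same range. The log2 fold change was -0.06 (95% interval -0.45 to 0.32, adjusted p = 0.907 by limma). *Ngfr* was at 9.78, 9.89 and 9.60 in the LBW pups and at 9.38, 9.69 and 9.51 in the ABW pups. Only LBW 3 was below an ABW value, ABW 2. The log2 fold change of *Ngfr* was 0.23 (SE 0.12, 95% interval -0.07 to 0.52, adjusted p = 0.503 by limma; exact permutation test, 2-sided p = 0.2).

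*S100b*, a calcium-binding protein used as a general Schwann cell marker, was at 10.94, 11.04 and 10.61 in LBW 1, 2 and 3 and at 11.10, 11.55 and 11.45 in ABW 1, 2 and 3. All LBW values were below all ABW values, and the nearest pair, LBW 2 and ABW 1, differed by less than the SD of either group (0.23 in LBW and 0.24 in ABW). The log2 fold change was -0.50 (SE 0.17, 95% interval -0.90 to -0.10, unadjusted p = 0.0218 and adjusted p = 0.331 by limma; exact permutation test, 2-sided p = 0.1). This fold change of 0.707 was short of the 1.5-fold criterion, which it met without LBW 2 (-0.59) and without ABW 1 (-0.64) by limma. The unadjusted p of limma was no longer under 0.05 without LBW 3 (log2 fold change -0.37), ABW 2 (-0.41) or ABW 3 (-0.46), nor was that of the unmoderated test with all pups. *Egfl8*, which encodes a secreted protein with EGF-like domains, was at 7.28, 7.19 and 7.05 in the LBW pups and at 6.80, 7.63 and 7.49 in the ABW pups. ABW 1 was the lowest of the 6 and the other two ABW pups were the highest, with a log2 fold change of -0.13 (95% interval -0.67 to 0.40, adjusted p = 0.845 by limma).

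*S100b* is also made by adipocytes and by cartilage cells. In the same muscles all 8 of the adipocyte genes with a row were lower in LBW (median log2 fold change -1.03). Of them, *Lep* (-1.57) and *Pparg* (-1.20) passed the unadjusted threshold by limma, which 4.28% of all transcripts passed. Set to 0 at the ABW average, these 8 genes averaged -0.52, -0.55 and -1.53 in LBW 1, 2 and 3 and -0.66, 0.42 and 0.25 in ABW 1, 2 and 3. LBW 3 and ABW 1, the pups with the lowest *S100b* of their groups, were thus also the pups with the lowest adipocyte mean of their groups. This is not particular to these genes, as LBW 3 was the lowest LBW pup in 38.1% of all transcripts. ABW 1 was the lowest ABW pup in 40.5% of them. *Adipoq*, a defining adipocyte gene, was between 11.56 and 13.68 in the 6 pups. The 5 cartilage genes with a row were highest in LBW 3, with means of 0.78, -0.09 and 1.34 in LBW 1, 2 and 3 and 0.24, -0.31 and 0.07 in ABW 1, 2 and 3. The part of either cell type in the *S100b* values was not tested.

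The 95% intervals of limma, which are not adjusted for the number of genes, lay inside a 1.5-fold change in both directions for 5 of the 8 genes, *Pmp22*, *Mag*, *Prx*, *Sox10* and *Ngfr*. Of these 5, *Mag* and *Prx* had signals below the median of every array (8.695 to 8.757). For the other 3 genes the intervals reached beyond a 1.5-fold change. The fold change of *Mbp* had an interval of 0.594 to 1.302, that of *Egfl8* one of 0.630 to 1.316 and that of *S100b* one of 0.535 to 0.933.

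The 5 *Mbp* rows did not move together. *Mbp* is read into many transcripts by alternative splicing and from more than 1 start, and the RefSeq table lists 15 transcripts for it. The rows NM_001025291, NM_001025292, NM_001025293 and NM_017026 gave nearly the same signal, and within any pup they differed by at most 0.21 on the log2 scale. Their mean was 11.62, 12.12 and 11.14 in LBW 1, 2 and 3 and 11.76, 11.61 and 11.47 in ABW 1, 2 and 3, which is a log2 fold change of 0.01 (SE 0.24, 95% interval -0.57 to 0.60, adjusted p = 0.986 by limma). The row NM_001025289 was dimmer and was at 8.47, 8.01 and 7.35 in the LBW pups and 9.11, 9.07 and 8.61 in the ABW pups. Every LBW value lay below every ABW value of this row, and the groups were apart in 17.4% of all transcripts.

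For NM_001025289 limma gave a log2 fold change of -0.99 (SE 0.29, 95% interval -1.70 to -0.28, unadjusted p = 0.0137, adjusted p = 0.307), or 0.505 of the ABW signal. It was the only one of the 12 rows past the unadjusted threshold, which 4.28% of all transcripts passed, and it was singled out after its values were seen. With each pup left out in turn it stayed past this threshold by limma, with log2 fold changes between -1.25 and -0.69. It was short of it by the unmoderated test (unadjusted p = 0.0532; exact permutation test, 2-sided p = 0.1). Set against the mean of the other 4 rows of the same pup, NM_001025289 was at -3.69 ± 0.49 (SD, n = 3) among LBW and at -2.68 ± 0.16 (SD, n = 3) among ABW pups, with no overlap (exact permutation test, 2-sided p = 0.1). The size of the gap between rows depends on the probes and is not a ratio of transcripts. What the probes of NM_001025289 match, and how far its signal lies above background, is not given in the sources used here.

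The genes of the myelinating cell were then set against *Ngfr* and *Sox10*. Of these, *Ngfr* marks the immature or unmyelinated cell, whereas *Sox10* marks the lineage at both stages, so that the difference from their mean is not a measure of maturity alone. Relative to the ABW mean of each gene, the mean of *Pmp22*, *Mbp*, *Mag* and *Prx* was 0.10, 0.15 and -0.27 in LBW 1, 2 and 3 and 0.02, 0.08 and -0.10 in ABW 1, 2 and 3. The mean of *Ngfr* and *Sox10* was 0.19, 0.15 and -0.09 in the LBW and -0.20, 0.08 and 0.12 in the ABW pups. Both means were lower in LBW 3 than in the other LBW pups. The myelinating mean minus that of *Ngfr* and *Sox10* was -0.09, 0.00 and -0.18 in the LBW pups (-0.09 ± 0.09, SD, n = 3) and 0.22, 0.00 and -0.22 in the ABW pups (SD 0.22, n = 3). All LBW values lay within the range of the ABW values, and the difference of -0.09 between the groups was smaller than the ABW spread. With *Ngfr* alone the myelinating mean minus *Ngfr* was -0.15, -0.22 and -0.34 in the LBW pups (-0.24 ± 0.10, SD, n = 3) and 0.17, -0.08 and -0.09 in the ABW pups (SD 0.15, n = 3). Here all LBW values were lower than all ABW values, although LBW 1 and ABW 3 lay closer together than the SD of either group. The difference between the groups was 0.11 with *S100b* and *Egfl8* added to *Ngfr* and *Sox10*, and with *Ngfr* and *Sox10* it was 0.02 without ABW 1, so that its sign depended on the genes chosen and on single pups.

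Among the LBW pups LBW 3 had the lowest value for each of the 8 genes, and it was the lowest LBW pup in 38.1% of all transcripts. The mean of the 8 genes relative to ABW was 0.04, 0.06 and -0.28 in LBW 1, 2 and 3 and -0.14, 0.12 and 0.01 in ABW 1, 2 and 3. LBW 3 was also the pup with the highest level of the 10 bone genes with a row, at 3.91 above the ABW mean, compared to 3.02 in LBW 1 and 0.51 in LBW 2. LBW 1, with the second highest bone mean, had a mean of the 8 genes above that of ABW, and the part of bone RNA in the values was not tested. Across the 6 pups the 28 pairs of genes had Pearson correlations between -0.76 (*Pmp22* with *S100b*) and 0.76 (*Mag* with *Ngfr*, and *Sox10* with *Egfl8*), with a median of 0.32 and 24 pairs above 0, as a description of pups that share the normalization.

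Among all rows with a symbol outside the 8 genes, the profile over the 6 pups most like the mean of the 8 was that of *Trim69* (Pearson r = 0.997), followed by *Pfdn6* (0.996), *Nars1* (0.995), *Tlr9* (0.993) and *Spata6* (0.989). With 6 pups and 9747 rows with a symbol such values are a description of these arrays. *Pfdn6*, a prefoldin subunit, was at 13.97, 14.06 and 13.50 in LBW 1, 2 and 3 and at 13.75, 14.14 and 13.96 in ABW 1, 2 and 3, with its lowest value in LBW 3.

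The wider lists held genes beyond the 8. Of 26 genes of the myelinating Schwann cell 20 had a row. Of these 20, 0 were past the threshold of the study by limma, compared to 4.28% of all transcripts, and 0 by the unmoderated test. At an unadjusted p under 0.05 by limma there were 0, compared to 12.4% of all transcripts. In a list of 20 genes a count of 0 past the threshold says little. Of the 20, 13 were higher and 7 lower in LBW, with log2 fold changes between -0.47 and 0.47 and a median of 0.03. The SD was larger among LBW than among ABW pups in 15 of the 20 genes, compared to 57.8% of all transcripts, but in only 2 of the 8 genes described first and in 7 of 15 genes of the immature list. LBW 3 had the lowest LBW value in 13 of the 20 genes. *Cd9*, a tetraspanin of myelinating and many other cells, averaged 12.31 ± 0.45 (SD, n = 3) for LBW against 11.84 ± 0.03 (SD, n = 3) for ABW, and LBW 2 (11.80) was its lowest pup. Without LBW 3 the count past the threshold was 3 by limma, with *Gjc3* (0.80), *Cldn19* (0.62) and the transcription factor *Egr2* (-0.64), and it was 1 without LBW 2 (*Cd9*, 0.72) and 1 without ABW 1 (*Egr2*, -0.62). Of all 26419 transcripts 1233 passed without LBW 3, 1555 without LBW 2 and 1414 without ABW 1.

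Of 21 genes of the immature and non-myelinating Schwann cell 15 had a row. Past the threshold were 0 by limma, compared to 4.28% of all transcripts, and 0 by the unmoderated test. Of these 15, 7 were higher and 8 lower in LBW, with a median log2 fold change of -0.06. At an unadjusted p under 0.05 by limma there were 4 of the 15, compared to 12.4% of all transcripts. Named here after their values were seen, they were *S100b*, the adhesion molecules *Ncam1* (0.48) and *Cdh2* (0.46), and *Jun* (-0.46), the transcription factor of the immature and injured Schwann cell. *Ncam1* and *Cdh2* are also made by muscle fibres and their precursors. *Zeb2*, a repressor needed for Schwann cell maturation, averaged 12.31 ± 0.17 (SD, n = 3) for LBW against 12.54 ± 0.04 (SD, n = 3) for ABW, with LBW 3 and ABW 1 both at 12.50. The count past the threshold was 2 without LBW 2 and 2 without ABW 1, *S100b* and *Ncam1* each time. Of all 26419 transcripts 1555 passed without LBW 2 and 1414 without ABW 1.

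**Figure D2:**
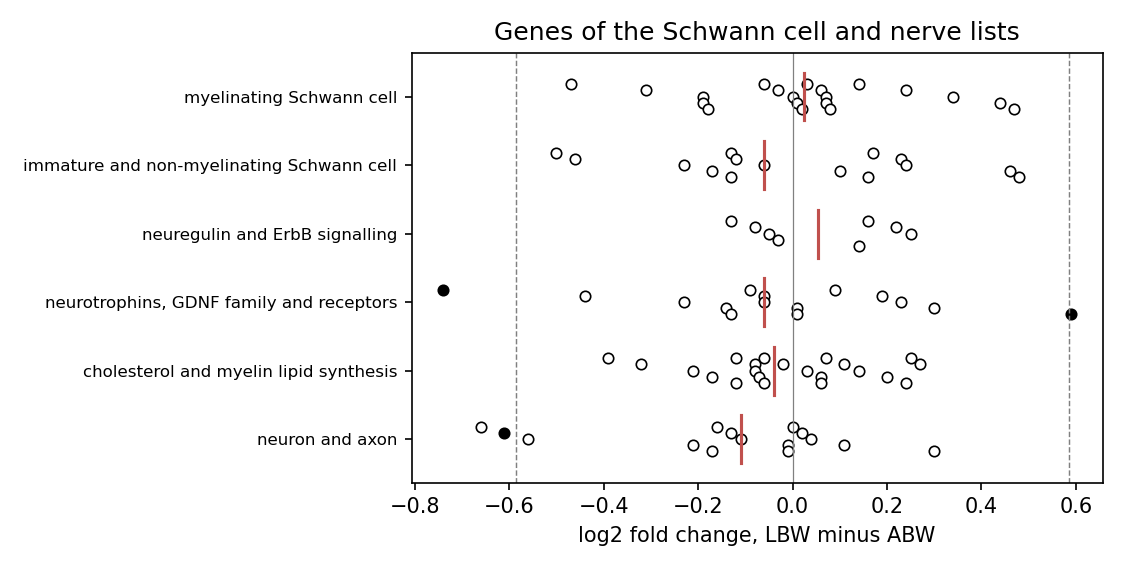
Log2 fold change of LBW over ABW (x axis) for each gene with a row in 6 lists of Schwann cell and nerve genes (y axis); filled circles are genes past the unadjusted threshold of the study by limma, open circles are the others, red bars are the list medians and dashed lines mark a 1.5-fold change in either direction. The medians lie between -0.11 and 0.05, and the 3 filled circles are *Ntrk2* and *Tubb3* on the lower and *Ntrk3* on the higher side.

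Axonal neuregulin drives Schwann cell survival and myelin thickness through the receptors Erbb2 and Erbb3. In the neuregulin and ErbB list 8 of 13 genes had a row. Of these 8, 0 were past the threshold by limma, compared to 4.28% of all transcripts, and 0 by the unmoderated test. At an unadjusted p under 0.05 by limma there were 0, compared to 12.4% of all transcripts. With 8 genes such counts say little about the pathway. *Egfr* (-0.08) and *Bace1* (-0.05), the protease that cleaves neuregulin, had the highest signals of the list, and the log2 fold changes ran from -0.13 to 0.25. In the list of cholesterol and myelin lipid synthesis, the pathways that supply the myelin membrane and that all cells use, 22 of 24 genes had a row. Past the threshold were 0 by limma, compared to 4.28% of all transcripts, and 0 by the unmoderated test. There, 10 were higher and 12 lower, with a median of -0.04. The log2 fold change of *Fdft1* was 0.07 and that of *Hmgcs1* -0.08. *Nsdhl* (-0.39), named after its value was seen, was the only one of the 22 with an unadjusted p under 0.05 by limma, compared to 12.4% of all transcripts.

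Of the neurotrophins, the GDNF family and their receptors, 15 of 17 genes had a row, *Ngfr* among them. By limma 2 of the 15 were past the unadjusted threshold, compared to 4.28% of all transcripts, both being Trk receptors that work beside p75. *Ntrk3*, the receptor of neurotrophin 3, was at 9.70, 9.37 and 9.57 in LBW 1, 2 and 3 and at 8.76, 9.04 and 9.09 in ABW 1, 2 and 3. The groups did not overlap, and limma put the log2 fold change at 0.59 (SE 0.13, adjusted p = 0.262). *Ntrk2*, the receptor of Bdnf, was at 9.53, 10.47 and 9.86 in the LBW and 10.32, 10.63 and 11.16 in the ABW pups. LBW 2 lay above ABW 1, and limma put the log2 fold change at -0.74 (SE 0.30, adjusted p = 0.388). Both calls were lost without LBW 1, where *Ntrk3* was at 0.51 and *Ntrk2* at -0.53, and without LBW 3, where they were at 0.57 and -0.70. *Ntrk3* lost its call without ABW 1 (0.48), and *Ntrk2* lost it without ABW 2 (-0.78) or ABW 3 (-0.52) and by the unmoderated test. Without LBW 3 or ABW 2 *Ntrk2* was short by its p and not by its fold change. The median of the list was -0.06.

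Of 16 genes of neurons and axons 15 had a row, of which 4 were higher and 11 lower in LBW. The median log2 fold change was -0.11. *Tubb3*, the neuronal beta-tubulin, was the only 1 of the 15 past the unadjusted threshold by limma, which 4.28% of all transcripts passed. It was at 9.30, 9.20 and 9.54 in LBW 1, 2 and 3 and at 9.79, 10.08 and 9.99 in ABW 1, 2 and 3. All LBW values were below all ABW values, and limma put the log2 fold change at -0.61 (SE 0.13, adjusted p = 0.249), which was short of the 1.5-fold criterion without LBW 1 (-0.58), LBW 2 (-0.53) or ABW 2 (-0.54). The count was 0 without LBW 1 or ABW 2 and 2 without LBW 2, when *Isl1* (-1.09) and *Stmn2* (-1.06) passed. Of all 26419 transcripts 806 passed without LBW 1, 888 without ABW 2 and 1555 without LBW 2. The ranges of the groups were apart for 3 of the 15 genes, compared to 17.4% of all transcripts. These were *Tubb3*, *Cntnap1* (-0.17) and, with LBW higher, *Uchl1* (0.30, adjusted p = 0.511 by limma), the last 2 named after their values were seen. *Thy1* (-0.13) and *Rtn1* (-0.01), the genes of the list with the highest signals, did not pass. The neurofilament genes were at 6.33 ± 0.21 (*Nefl*), 7.90 ± 0.67 (*Nefm*) and 6.02 ± 0.05 (*Nefh*) in LBW and, in this order, at 6.22 ± 0.15, 7.88 ± 0.40 and 6.13 ± 0.22 in ABW pups (SD, n = 3). Of the perineurium, the sheath around nerve bundles, only 3 of 7 genes had a row. *Slc2a1*, the glucose transporter of that sheath and of many other cells, had 0.63 as its log2 fold change (SE 0.18, adjusted p = 0.305 by limma) and was past the threshold, but it lost this call without LBW 3 (0.54), ABW 1 (0.50) or ABW 3 (0.58), while *Cldn1* was at 0.01 and *Itgb4* at -0.07.

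The tissue and the source of the myelin genes were checked against marker genes. The muscle genes *Acta1* (15.15 to 15.41) and *Tnnc2* (15.06 to 15.33) were among the highest signals of the arrays in all pups. Of 13 muscle genes 0 were past the threshold by limma, compared to 4.28% of all transcripts, and 0 by the unmoderated test. At an unadjusted p under 0.05 by limma there were 0, compared to 12.4% of all transcripts. Their log2 fold changes ran from -1.04 (*Pvalb*, unadjusted p = 0.0841 by limma) to 0.41 (*Myh7*), both named after their values were seen. Of the 13, 6 were higher and 7 lower in LBW. Of the genes of oligodendrocytes, the myelinating glia of the central nervous system, which share *Mbp* and *Mag* with Schwann cells, *Mobp* was between 5.64 and 5.88, *Opalin* between 5.41 and 5.66, *Olig1* between 6.48 and 6.68 and *Mog* between 6.54 and 6.91. These log2 signals are in the lower part of the arrays, whose medians were between 8.695 and 8.757, although the deposited values give no detection call. Of the 8 genes, *Prx* (6.52 to 7.13), *Egfl8* (6.80 to 7.63) and *Mag* (7.18 to 7.70) also lay below these medians. The neurofilament genes lay below them too, so that the level alone does not tell the sources apart. *Gpr37* and *Aspa*, which other tissues also make, were at 9.31 to 10.46. Of the 6 oligodendrocyte genes 0 passed the threshold by limma and 2 had an unadjusted p under 0.05 (*Mog*, log2 fold change 0.24, and *Aspa*, -0.50), as 12.4% of all transcripts did. In 3 of the 6 the groups did not overlap, compared to 17.4% of all transcripts.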

How the data were processed

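RNA from the muscle of 3 LBW and 3 ABW pups was run on NimbleGen arrays with 5 probes per transcript. The authors deposited normalized log2 values, 1 per transcript and pup. Per the labels, RMA was used in their processing, and the methods name in-house R scripts and Bioconductor. The way in which RMA was applied is not given in the sources used here, and its steps are already contained in the values. As no reads were counted, precision is limited by how many arrays there were.

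Rows were named through the accessions of a RefSeq gene table (assembly GRCr8). The array design follows another build, so that gene coordinates are given only for the RefSeq sequences printed. The 5 rows of *Mbp* and the 2 rows of *Sp7* were averaged per array, and the other rows entered as deposited. Differences between LBW and ABW means were tested by lmFit and eBayes of limma 3.58.1 (R 4.3.3). All p-values are 2-sided, and adjustment was by Benjamini-Hochberg across every row. Counts over all transcripts and the single *Mbp* rows come from the fit of all 26419 rows. Single genes were also tested by exact permutation of the 6 values (scipy 1.17.1). The fit was tested on simulated data.

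The genes, the lists and the rule for named genes (all 8 genes, the genes of each list past the threshold, or else the 2 with the highest signal, and the 5 profiles most alike) were chosen with earlier results of these data known. One gene that this rule names is not reported here. The other marker lists were perineurium, basal lamina, oligodendrocytes, melanocytes, muscle, bone, cartilage, adipocytes and endothelium. The alternatives are listed with their effect in the closing section. Per the labels the replicates are biological, and whether any pups shared a litter is not stated.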

Additional observations from a re-analysis of the deposited data

How the results depend on the processing

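Of the 8 genes 0 passed the threshold of the study under every alternative except leaving out LBW 2 or ABW 1, when *S100b* passed, so that the count lay between 0 and 1 over the pups left out. The alternatives were the replicate block, array weights, quantile normalization, centring on the median, a variance fitted robustly or with a trend on intensity, dropping the 25% of rows with the lowest signal, the unmoderated test, 1 averaged row per symbol, a fold change of at least 2, the adjusted p and, chosen after seeing the data, *Mbp* from its other 4 rows. The median log2 fold change of the 8 genes lay between -0.13 and 0.07 with each pup left out and was 0.02 with *Mbp* from its other 4 rows. The difference of -0.09 between the myelinating mean and that of *Ngfr* and *Sox10* lay between -0.20 and 0.02 with each pup left out. With *Mbp* from its other 4 rows this difference was -0.04, so that part of it came from the row NM_001025289. It was -0.24 with *Ngfr* alone, when the groups did not overlap, 0.11 with *S100b* and *Egfl8* added and 0.02 with all genes of both lists, and the cause was not tested.

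Over all transcripts 1131 passed the threshold, compared to 586 by the unmoderated test, 336 at a fold change of at least 2 and 0 after adjustment (126 after adjustment without LBW 2), and between 806 and 1555 with each pup left out. A higher fold change or an adjusted p can only remove calls. Left out in turn, the pups gave between 0 and 3 myelinating genes, 0 and 2 immature genes, 0 and 2 neurotrophin genes and 0 and 2 neuron genes past the threshold. The neurotrophin count was 1 with quantile normalization and 1 with centring on the median, since *Ntrk3* at 0.58 and 0.57 was then short of 1.5-fold.

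Whether the replicate numbers pair the pups is not stated. Pups of the same number deviated from their groups with correlations of 0.087, 0.103 and 0.055, which cannot decide this, and the main fit took no pairing. With the replicate block 1236 transcripts and 0 of the 8 genes passed the threshold. Low signals could not be set against background.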

Other observations

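The lists of the basal lamina, the endothelium and melanocytes, which belong to none of the comparisons above, were covered by few rows. Of the basal lamina and its receptors 3 of 12 genes had a row, and *Itgb1*, the integrin chain that Schwann cells and muscle fibres share, had a log2 fold change of 0.18 and *Lamb2* one of 0.08, neither past the threshold. Of the endothelium 4 of 8 genes had a row, with *Cldn5* at -0.16 and *Emcn* at -0.29, and none past the threshold. *Emcn* had an unadjusted p of 0.0354 by limma (adjusted p = 0.369), as 12.4% of all transcripts had one under 0.05, and its LBW values all lay below its ABW values. None of the 7 melanocyte genes, which mark another Sox10-positive lineage of the neural crest, had a row with a matched symbol. Of the bone genes 6 of 10 were past the unadjusted threshold by limma, compared to 4.28% of all transcripts. All 6 were higher in LBW, with *Spp1* (5.02), *Ibsp* (4.73) and *Bglap* (3.60) the highest. Of the cartilage genes 1 of 5 was past it, *Acan* (2.07), with *Comp* at 0.83 and *Col2a1* at 0.33.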
